A study of Mus musculus with 5 samples.

Results

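A set of 6 genes encoding enzymes with which myeloid cells can restrain T cells, *Arg1*, *Nos2*, *Ido1*, *Hmox1*, *Acod1* and *Ptgs2*, were followed through MC38 tumors by cell class and by treatment. They were chosen by name, with earlier results of these data known, and are 6 of the 33696 genes in the tumor matrices. MC38 is a mouse colon carcinoma line, grown here under the skin of male C57BL/6J mice aged 8 to 10 weeks. All mice received antibodies on days 3, 6 and 9, either isotype control or dual checkpoint inhibition (CPI, anti-CTLA4 with anti-PD-1), then vehicle or the JAK1 inhibitor ABT-317 at 20 mg/kg on day 12, and tumors were taken on day 15. The 4 groups are therefore isotype, isotype + ABT-317, CPI and CPI + ABT-317. Cells were sorted by CD45 and CD45+ and CD45- cells were pooled, so the share of myeloid cells in these data reflects the sort. Each group carried 1 hashtag (an antibody with a DNA label) in each of 2 10x reactions, a different one in each, and the deposited key gives the group of a hashtag but no mouse. A sum of the UMIs (counted molecules) of a group in a reaction is the replicate here, with 2 per group and 8 in all. The study used several mice per group and hashtags to tell samples and groups apart, but does not say which mice each reaction held. Nothing says that both reactions held cells of different mice, so p-values measure only the spread between such sums, which may be technical.

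These enzymes act on small molecules that T cells depend on or respond to. *Arg1* (arginase) and *Nos2* (inducible nitric oxide synthase) use the same amino acid, arginine, and make ornithine and nitric oxide from it. *Ido1* opens the breakdown of tryptophan to kynurenine, *Hmox1* (heme oxygenase) degrades heme, *Acod1* makes itaconate from a citrate cycle intermediate, and *Ptgs2* (an inducible cyclooxygenase) starts prostaglandin synthesis. Interferon gamma, which signals through JAK1, is a textbook inducer of *Nos2*, *Ido1* and *Acod1* in macrophages, whereas *Arg1* is a textbook product of alternative activation.

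The files hold 37774 and 27582 barcodes with 435031691 and 377184807 gene UMIs in reactions 1 and 2, and 1416 barcode sequences occur in both. After removal of barcodes with under 200 genes or 10% or more mitochondrial UMIs, 57094 barcodes were left, of which 14849 and 7033 carried several hashtags and were left out. Barcodes were clustered without the 6 genes and without their pathway genes, and a cluster was called "X-like" from its marker genes. This gave 8725 macrophage-like and monocyte-like barcodes in 7 sub-clusters, each called here by its 2 leading genes other than the 6 members (*Hmox1* was second among those of Hspb1/Adm barcodes). The 6 macrophage-like ones take their name from the first-round cluster they came from, which was led by *Ccl3*, *Ccl4*, *C1qa* and *Apoe* and also high in *C1qb* and *C1qc*. Against all other clusters, *C1qa* or *C1qb* was among the 10 leading genes of the Cxcl9/Fgd2, H2ac8/H2ac24 and Pde4c/Gm17749 sub-clusters, and none of these C1q genes nor *Apoe* among those of the Areg/Tnfsf9, Hspb1/Adm and Cmpk2/Ifit3 ones. Surface antibody counts went with the names in part. CD11b, an integrin of myeloid cells, had medians of 88.0 to 145 counts in these 7 sub-clusters and 9.0 to 12.0 in T-like, fibroblast-like and endothelial-like barcodes and in the unnamed non-immune clusters, and Ly-6G, a neutrophil marker, had medians of 61.0 and 71.5 in neutrophil-like barcodes against 24.0 to 29.0 in the 7 sub-clusters. Ly-6C, a marker of inflammatory monocytes, did not go with the monocyte name. Its medians were 84.5 and 85.5 in Lyz1/Saa3 barcodes, within the 75.0 to 89.0 of the macrophage-like sub-clusters and below T-like (91.0 and 89.0) and fibroblast-like ones (126 and 138).

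The barcodes with the CPI hashtag stood apart from the other groups. T-like barcodes made up 26.3% and 26.4% of them and fibroblast-like ones 38.5% and 41.6%, against at most 0.635% and 0.804% in any other group, and unnamed non-immune barcodes were 3.39% and 2.38% against 36.2% to 85.9%. The CPI hashtag also had its background and signal close together, with mean counts of 17.7 and 54.3 in reaction 1 and 10.1 and 36.6 in reaction 2. Barcodes with several hashtags are left out of the class shares. They were 91.1% of a cluster led by T cell genes and 19.4% of the T-like cluster. A group is known only from the key, and whether its entries for CPI are right could not be checked, so every comparison with CPI rests on a label in doubt. Of the macrophage/monocyte-like barcodes, the Lyz1/Saa3 sub-cluster, monocyte-like by its markers, made up 91.0% and 91.5% with CPI, 1.34% and 1.21% with isotype, 0.806% and 0.483% with isotype + ABT-317, and 9.96% and 12.7% with CPI + ABT-317. The name does not hold for most of its CPI barcodes. In the first round of clustering 159 of 193 and 143 of 173 of them lay in cluster 13, a C1q-high macrophage-like cluster led by *Ccl6*, *Lyz1* and *Wfdc17*, whereas 43 of 47 and 38 of 44 with isotype and 25 of 26 and 40 of 46 with CPI + ABT-317 lay in cluster 0, C1q-high macrophage-like and led by *Ccl3* and *Ccl4*. The 10 monocyte markers summed to 585 and 536 CPM in the former CPI barcodes, 880 and 698 CPM in the 31 and 27 CPI barcodes of cluster 0, and 1799 to 2300 CPM in those of isotype and CPI + ABT-317 there. Treatment and class mix thus cannot be told apart in a comparison with CPI over all macrophage/monocyte-like barcodes, and each is given with its values within the classes.

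Over whole libraries, 5 of the 6 genes were far above their level in the tumor-draining lymph nodes of mice with another tumor line (TRAMP-C2), which were run separately and are given as levels only. *Hmox1* stood at 84.5 and 116 CPM (counts per 1000000 gene UMIs) in the 2 tumor reactions, *Ptgs2* at 78.0 and 77.4, *Acod1* at 58.9 and 67.3, *Arg1* at 31.6 and 34.9 and *Nos2* at 12.0 and 9.64. In the 3 lymph node reactions none of the 6 genes was above 1.55 CPM. *Ido1* was low in both tissues, at 0.294 and 0.321 CPM in tumors (128 and 121 UMIs) and 0.157, 0.190 and 0.0554 CPM in lymph nodes (20, 20 and 1 UMIs).

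The genes differed in how far they were myeloid. Of the UMIs in barcodes with 1 hashtag or none, the unnamed non-immune clusters, 42.2% of barcodes with a median of 20157 UMIs each, held 2.00% of those of *Acod1* and 2.37% of those of *Arg1*, but 55.3% for *Hmox1*, 55.4% for *Ptgs2* and 62.8% for *Nos2*. In CPM, *Arg1*, *Hmox1*, *Acod1* and *Ptgs2* were nonetheless higher in every macrophage-like sub-cluster than in those clusters. *Nos2* was at 8.32 CPM in those clusters and at 9.49 CPM (interval 7.77 to 11.5) and 6.08 CPM (4.30 to 8.35) in the Cxcl9/Fgd2 and H2ac8/H2ac24 sub-clusters, and higher in the other 4. These levels pool the treatments. With isotype alone, by the values given further on, Cxcl9/Fgd2 barcodes stood below 8.32 CPM in both reactions. T-like barcodes, in which these genes are not expected, give a level of free RNA and mixed droplets for shallow barcodes only: 9.74 CPM for *Arg1*, 8.24 for *Nos2*, 26.2 for *Hmox1*, 21.7 for *Acod1* and 29.96 for *Ptgs2*, at a median of 1042 UMIs. In the deeper unnamed non-immune clusters *Arg1* had 280 UMIs and *Acod1* 498, against the 2655 of *Nos2* at 8.32 CPM. Both thus lay well below their T-like levels, which are not a background for deeper classes.

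**Figure D1:**
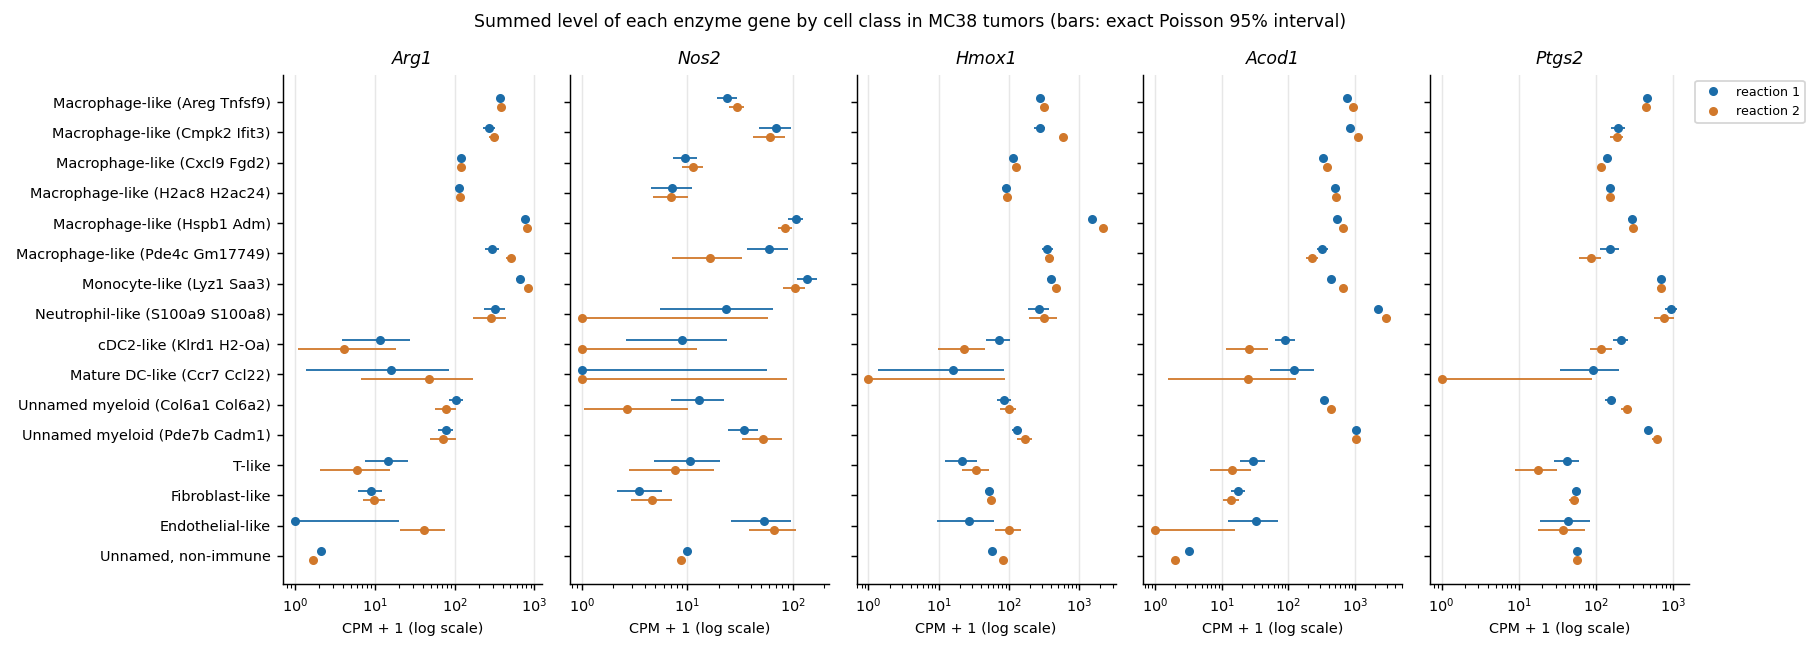
Summed level (CPM + 1, log scale) of 5 of the enzyme genes in each cell class and reaction, pooled over treatments, with exact Poisson 95% intervals that cover counting error only. *Arg1* and *Nos2* are high in the Hspb1/Adm and Lyz1/Saa3 (monocyte-like) sub-clusters, *Hmox1* in Hspb1/Adm barcodes, *Acod1* in neutrophil-like ones (2202 and 2938 CPM) and *Ptgs2* in neutrophil-like and Lyz1/Saa3 ones.

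*Arg1* (ENSMUSG00000019987) was highest in the Hspb1/Adm macrophage-like sub-cluster, 955 barcodes with high *Hspb1*, *Adm*, *Mmp12* and *Mt2*, at 769 CPM in reaction 1 and 800.1 in reaction 2. The Lyz1/Saa3 sub-cluster, 544 barcodes led by *Lyz1*, *Saa3* and *Ly6c2*, came next at 656 and 829 CPM, and these 2 overlapped across reactions. These levels pool the treatments. With isotype alone Lyz1/Saa3 barcodes stood at 389 and 754 CPM and Hspb1/Adm ones at 652 and 670.4 CPM, again overlapping. The former stood at 450.5 and 411 CPM with CPI (193 and 173 of the 544 barcodes) and at 1931 and 2022 CPM with CPI + ABT-317 (26 and 46). The Pde4c/Gm17749 (294 and 503 CPM), Areg/Tnfsf9 (375 and 378), neutrophil-like (324 and 283) and Cmpk2/Ifit3 (270.1 and 311) barcodes lay below them. The Cxcl9/Fgd2 sub-cluster, the most numerous with 3500 barcodes, stood at 118 and 121 CPM and the H2ac8/H2ac24 sub-cluster, which carries cell cycle genes, at 113 and 116. Dendritic cells were low, with 7.11 CPM over 200 cDC2-like barcodes, at the T-like level. Thinned to 2000 UMIs each, 49.4% of Hspb1/Adm barcodes had an *Arg1* UMI (exact binomial 95% interval 45.8% to 52.9%), against 12.1% (10.9% to 13.4%) of Cxcl9/Fgd2 barcodes and 0.715% (0.343% to 1.31%) of fibroblast-like ones. Before thinning these shares were 53.7%, 15.3% and 1.73%.

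*Nos2* (ENSMUSG00000020826) had its highest pooled levels in the same pair of sub-clusters, 137 and 103 CPM in Lyz1/Saa3 and 106 and 83.2 CPM in Hspb1/Adm barcodes, which overlapped. Most Lyz1/Saa3 UMIs, 60 and 49, came from the 26 and 46 barcodes with CPI + ABT-317 (682 and 344 CPM). With isotype that sub-cluster stood at 53.0 and 65.5 CPM and with CPI at 40.7 and 24.7 CPM, below the 86.3 and 68.3 CPM of Hspb1/Adm barcodes with isotype. The Cmpk2/Ifit3 sub-cluster of interferon-induced genes followed with 68.6 and 59.7 CPM. Areg/Tnfsf9 barcodes had 23.1 and 28.4 CPM, and the Pde4c/Gm17749 sub-cluster had 58.3 CPM in reaction 1 but 15.5 in reaction 2, from 27 UMIs in all. Outside the myeloid cells, endothelial-like barcodes stood at 52.1 and 65.3 CPM from 26 UMIs in 109 barcodes (59.5 CPM over both, interval 38.9 to 87.2). Thinned, 13.1% (10.9% to 15.7%) of Hspb1/Adm and 12.1% (8.44% to 16.7%) of Lyz1/Saa3 barcodes had a *Nos2* UMI, against 1.195% (0.819% to 1.68%) of Cxcl9/Fgd2 barcodes and 0.357% (0.116% to 0.832%) of fibroblast-like ones. By treatment the Lyz1/Saa3 share was 7.41% and 7.14% with isotype, 5.41% and 2.70% with CPI and 54.5% and 30.3% with CPI + ABT-317.

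*Hmox1* (ENSMUSG00000005413) separated the Hspb1/Adm sub-cluster from all other classes. It stood there at 1524 and 2175 CPM, and thinned, 73.6% (70.4% to 76.7%) of the barcodes had a UMI. In the other 6 macrophage/monocyte-like sub-clusters it ranged from 90.24 CPM (H2ac8/H2ac24, reaction 1) to 596 CPM (Cmpk2/Ifit3, reaction 2), with 399 and 464 CPM in Lyz1/Saa3 barcodes. Outside the myeloid cells it stood at 53.4 CPM in fibroblast-like and 70.5 CPM in the unnamed non-immune barcodes, which at a median of 20157 UMIs had a UMI in 42.0% of barcodes and, thinned, in 9.61%.

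*Acod1* (ENSMUSG00000022126) was ordered differently. Neutrophil-like barcodes, of which there were only 140 with a median of 855 UMIs, had the highest level, 2202 and 2938 CPM. The Cmpk2/Ifit3 (833 and 1096 CPM) and Areg/Tnfsf9 (753 and 920 CPM) sub-clusters followed and overlapped, and an unnamed myeloid sub-cluster led by *Pde7b* and *Cadm1* (1047 and 1018 CPM) lay in the range of the first. Hspb1/Adm, Lyz1/Saa3 and H2ac8/H2ac24 barcodes lay between 438 and 658 CPM. These levels pool the treatments, and Lyz1/Saa3 barcodes stood lower with CPI than with isotype or CPI + ABT-317, by the values given further on. The lowest of the macrophage-like levels were those of the Cxcl9/Fgd2 (334 and 378 CPM) and Pde4c/Gm17749 (321 and 226 CPM) sub-clusters, still above cDC2-like barcodes at 88.9 and 24.9 CPM. After thinning, 60.8% (58.5% to 63.1%) of Areg/Tnfsf9 barcodes had a UMI, against 1.57% (0.988% to 2.37%) of fibroblast-like ones.

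*Ptgs2* (ENSMUSG00000032487) was highest in neutrophil-like barcodes (935 and 754 CPM) and Lyz1/Saa3 barcodes (690 and 678 CPM), and then in the unnamed Pde7b/Cadm1 sub-cluster (473 and 605 CPM) and in Areg/Tnfsf9 barcodes (457 and 446 CPM), whose leading genes *Areg*, *Il10*, *Cxcl1* and *Il1a* encode secreted factors. Hspb1/Adm barcodes had 285 and 299 CPM, and the remaining macrophage-like sub-clusters 84.3 to 189 CPM. These levels pool the treatments. With isotype alone, by the values given further on, Lyz1/Saa3 barcodes stood above neutrophil-like ones in both reactions, and they were lower with CPI. cDC2-like barcodes reached 207 and 115 CPM, within the range of the macrophage-like sub-clusters. Thinned, 53.8% (47.6% to 59.9%) of Lyz1/Saa3 and 47.5% (45.2% to 49.9%) of Areg/Tnfsf9 barcodes had a UMI, against 8.01% (6.64% to 9.55%) of fibroblast-like ones.

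For *Acod1* and *Ptgs2*, a pair often found together (with barcodes thinned, *Ptgs2* in 37.3% of barcodes with and 23.9% of those without *Acod1* in reaction 1, 34.2% and 21.8% in reaction 2, but within Areg/Tnfsf9 barcodes 48.0% and 48.6%, and 46.1% and 48.2%), RefSeq promoter sequence was at hand. Shown are the 250 bases before the start of each gene in build GRCm38.p6, plus strand, at chr14:103046762-103047011 for *Acod1* and chr1:150099781-150100030 for *Ptgs2*, with the motifs found in capitals.
Acod1: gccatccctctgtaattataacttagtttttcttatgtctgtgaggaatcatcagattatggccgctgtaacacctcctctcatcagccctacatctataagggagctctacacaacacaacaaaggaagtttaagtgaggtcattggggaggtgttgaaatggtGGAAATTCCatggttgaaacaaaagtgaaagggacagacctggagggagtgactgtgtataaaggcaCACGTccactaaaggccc
Ptgs2: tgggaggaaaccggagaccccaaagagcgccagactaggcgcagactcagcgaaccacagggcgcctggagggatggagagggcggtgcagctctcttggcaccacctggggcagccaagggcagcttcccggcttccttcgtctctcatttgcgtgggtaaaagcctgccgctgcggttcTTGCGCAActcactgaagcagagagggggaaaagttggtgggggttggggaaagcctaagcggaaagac
The *Acod1* window holds GGAANTTCC, letters of the NF-kB motif, 85 bases before the start, and on the other strand ACGTG, the hypoxia core, 18 bases before it. The *Ptgs2* window holds TTGCGCAA, letters of the C/EBP motif, 69 bases before the start. Of 32851 promoters of the same length, 0.813% hold the first, 16.6% the second and 0.164% the third on either strand. Neither window holds TTCNNNGAA (an interferon-activated site, 7.02% of promoters), the core of an interferon-stimulated response element (2.98%) or ACGTCA (6.47%). The motifs were chosen with the sequences in view, and a match is a description of letters only.

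*Ido1* (ENSMUSG00000031551) was close to undetected in myeloid cells. It had 114 UMIs in barcodes with 1 hashtag or none, 99 of them in the unnamed non-immune clusters (0.310 CPM) and 2 in the Cxcl9/Fgd2 sub-cluster (0.179 CPM, interval 0.0217 to 0.647), 1 of them from an isotype and 1 from a CPI + ABT-317 barcode. It had no UMI in the other myeloid classes, mature dendritic cell-like barcodes included. A count of 0 allows up to 0.362 CPM in Areg/Tnfsf9, 0.898 CPM in Hspb1/Adm and 2.44 CPM in Lyz1/Saa3 barcodes, but up to 27.5 CPM in the 34 mature dendritic cell-like barcodes, where depth is the limit. *Ido1* did not pass the filter on low counts, so 5 of the 6 genes were tested below. Tryptophan genes as a list were thin, with 4 of 11 passing that filter.

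The members were found together in the same barcodes to differing degrees. With each barcode thinned to 2000 UMIs, 3 or more of the 6 genes were found in 39.1% of neutrophil-like barcodes, of which only 23 were deep enough, 35.5% of Hspb1/Adm, 31.8% of Lyz1/Saa3, 19.5% of Areg/Tnfsf9 and 18.3% of Cmpk2/Ifit3 barcodes. Against these stood 9.36% of Pde4c/Gm17749, 3.1005% of Cxcl9/Fgd2, 3.098% of H2ac8/H2ac24 and 0.143% of fibroblast-like ones. In all macrophage/monocyte-like barcodes, *Nos2* was found in 9.81% of barcodes with *Arg1* and 2.05% of those without in reaction 1, and in 8.95% and 2.23% in reaction 2. *Nos2*, whose product competes with that of *Arg1* for arginine, was thus found more often in barcodes with *Arg1* than in those without. These shares pool the treatments, and both genes were high with CPI + ABT-317. With isotype alone they were 6.53% and 1.61%, and 6.57% and 1.78%. All shares that follow pool the treatments again, and within sub-clusters none was computed for isotype alone. The part of treatment in them was not tested. In both reactions the order was the same within the Areg/Tnfsf9, Hspb1/Adm, Lyz1/Saa3, Cmpk2/Ifit3 and Cxcl9/Fgd2 sub-clusters. In H2ac8/H2ac24 barcodes of reaction 2 the shares were close, 1.19% and 1.08%, and in Pde4c/Gm17749 barcodes no barcode with *Arg1* had *Nos2*, against 5.17% of those without in reaction 1. In Areg/Tnfsf9 barcodes the shares were 6.96% with and 1.71% without *Arg1* in reaction 1 and 6.54% and 2.30% in reaction 2, and in Hspb1/Adm barcodes 17.7% and 10.2%, and 16.04% and 9.05%. *Hmox1* was found in 41.0% of barcodes with and 19.5% of those without *Arg1* in reaction 1 (44.3% and 22.04% in reaction 2), and within Areg/Tnfsf9 barcodes in 37.7% and 17.8% (34.0% and 22.4%). Within Hspb1/Adm barcodes these shares were 69.1% and 67.0% in reaction 1 and 81.1% and 75.1% in reaction 2. For *Acod1* the shares with and without *Arg1* were close, 44.1% and 40.0% in reaction 1 and 45.5% and 41.5% in reaction 2. Within Areg/Tnfsf9 barcodes they were 57.5% and 60.0%, and 56.5% and 65.0%. These shares are a description without a test, since barcodes of 1 reaction are not replicates.

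Across 26 sums (13 classes in 2 reactions, 6094 genes compared), the genes whose log2 level was most like each member were, by Pearson's r, *F13a1* for *Arg1* (0.908), *Plk2* for *Nos2* (0.832), *Vegfa* for *Hmox1* (0.951), *Ccrl2* for *Acod1* (0.922) and *Zeb2* for *Ptgs2* (0.932). *Prdx1* (0.929) was also among the 3 nearest to *Hmox1*, *Nfkbiz* (0.915) and *Cxcl2* (0.904) to *Acod1*, and *Cd14* (0.905) to *Ptgs2*. The unnamed clusters were left out of the 13 classes. The non-immune ones among them held 55.3% of the UMIs of *Hmox1*, 55.4% of those of *Ptgs2* and 62.8% of those of *Nos2*. No gene exceeded 0.356 for *Ido1*. Its only UMIs in the 13 classes were 2 in Cxcl9/Fgd2 barcodes, so its r says nothing about its pattern. The points share libraries and depth, and no p was computed.

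**Figure D2:**
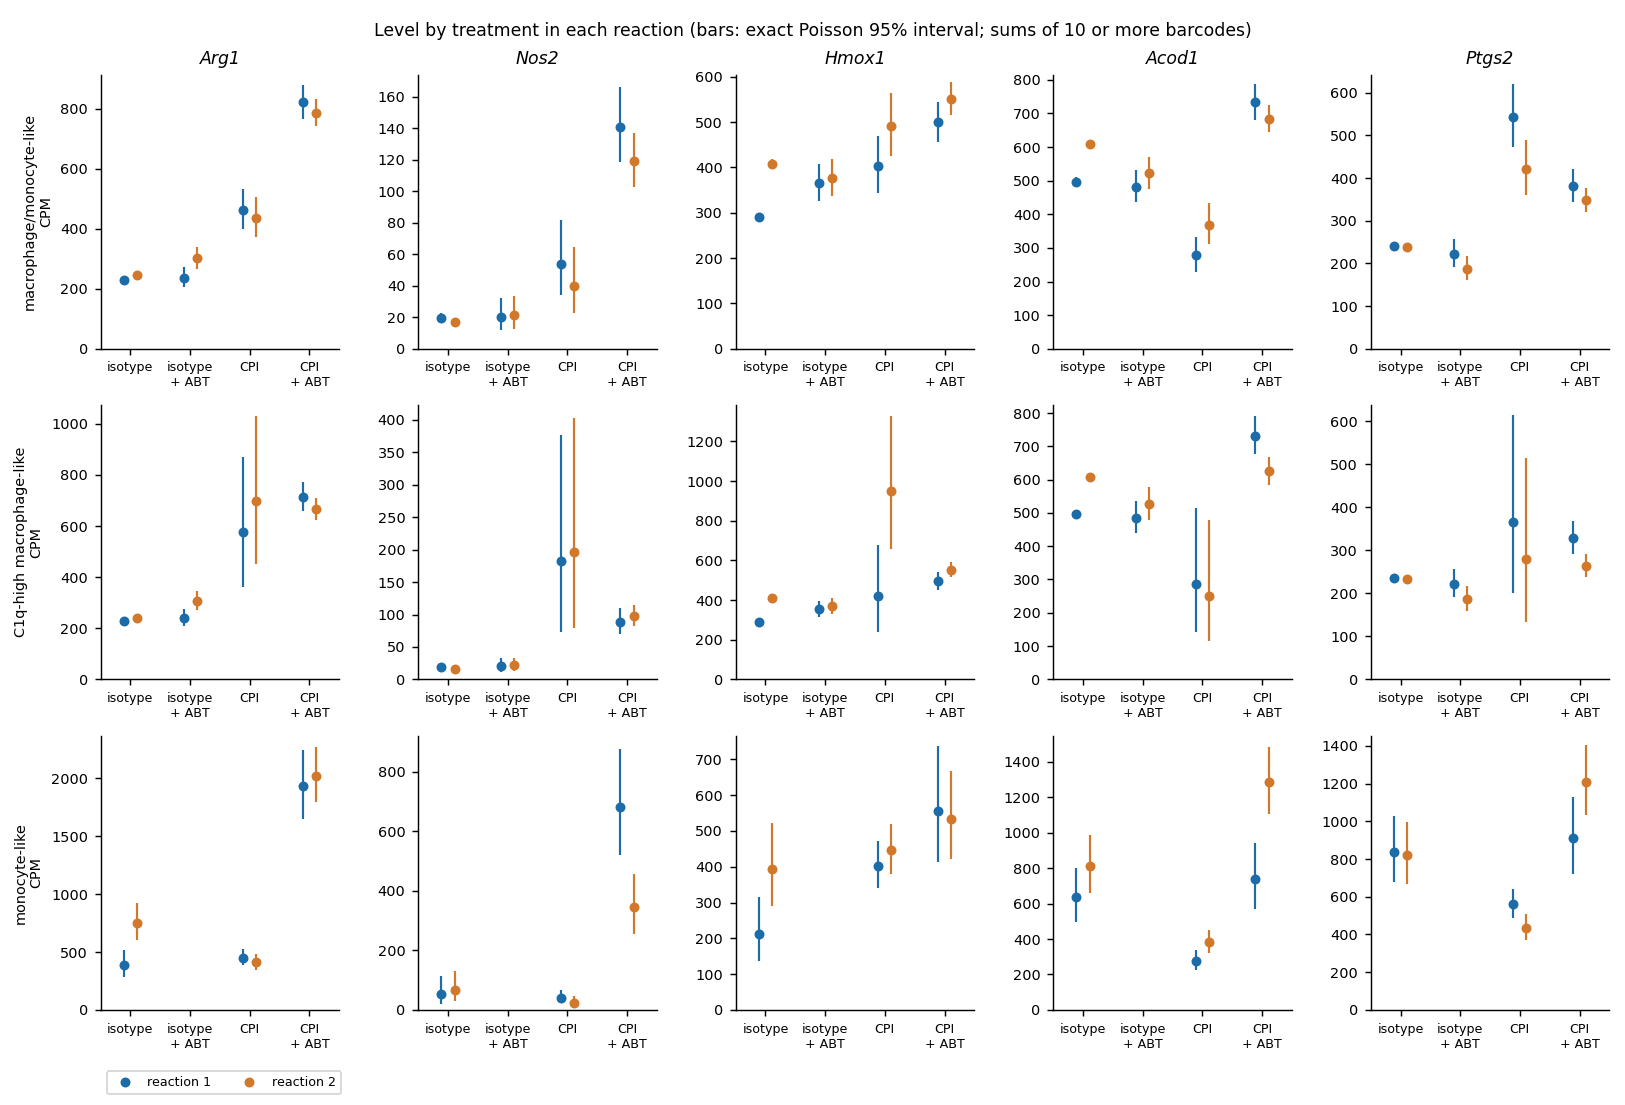
Level (CPM) of 5 enzyme genes by treatment and reaction in all macrophage/monocyte-like barcodes, in the C1q-high macrophage-like ones and in the Lyz1/Saa3 (monocyte-like) ones, with exact Poisson 95% intervals. *Arg1* and *Nos2* of CPI + ABT-317 lie above isotype in every row, and the long bars of CPI in the middle row come from 19 and 16 barcodes.

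The first comparison asked what ABT-317 does without CPI. None of the 5 members tested was called between isotype + ABT-317 and isotype in macrophage/monocyte-like barcodes, where 3 of 8134 genes, 0.0369%, were called by edgeR's quasi-likelihood test with Benjamini-Hochberg adjustment over all genes at 0.05. *Arg1* stood at 230.2 and 245 CPM with isotype and 237 and 302 CPM with isotype + ABT-317, and *Nos2* at 19.8 and 17.1 against 20.3 and 21.4 CPM. The sums overlapped between groups for *Arg1*, while both *Nos2* sums of isotype + ABT-317 lay above those of isotype, by less than the SE of the difference (0.14, SE 0.24). The 5 differences lay between -0.27 (SE 0.14, *Ptgs2*) and 0.15 (SE 0.14, *Arg1*) on the log2 scale, all at an adjusted p of 0.99991, and at an unadjusted p the lowest was 0.0691 for *Ptgs2*. A 95% interval for *Nos2*, made from the SE with normal quantiles and so narrower than one matching the test, ran from -0.33 to 0.61. The interval of *Ptgs2* made this way ran from -0.54 to -0.0022 and left out 0, though the test did not call it. With the reaction as a block 127 genes were called and again no member. *Ptgs2* stood at -0.27 in that fit (SE 0.097, unadjusted p = 0.00736, adjusted p = 0.204). Barcode numbers were uneven, 3504 and 3650 with isotype against 248 and 207 with isotype + ABT-317.

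The second comparison, CPI with isotype, asked what checkpoint antibodies alone did. In all macrophage/monocyte-like barcodes *Nos2*, *Ptgs2* and *Arg1* rose and *Acod1* fell, in a comparison in which 23.7% of all genes tested were called. *Arg1* had 462 and 437 CPM with CPI (log2 difference 0.91, SE 0.15, adjusted p = 0.000614), above both isotype sums. *Nos2* had 54.1 and 39.9 CPM (1.34, SE 0.25, adjusted p = 0.00166) and *Ptgs2* 543 and 422 CPM against 242 and 239 CPM (0.99, SE 0.14, adjusted p = 0.000162). *Acod1* had 278 and 369 CPM against 498 and 608 CPM (-0.78, SE 0.18, adjusted p = 0.00623), a call lost in 3 of the alternatives. *Hmox1*, with 403 and 491 against 290.4 and 409 CPM, overlapped (0.35, SE 0.19, adjusted p = 0.214; 0.00752 with the reaction as a block, and 0.0286 without isotype reaction 2, where the difference was 0.64). Without CPI reaction 1, *Nos2* (1.16, adjusted p = 0.0546) and *Acod1* (-0.54, adjusted p = 0.104) were no longer called, and the genes called fell to 1126, and to 991 without CPI reaction 2.

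Within the Lyz1/Saa3 sub-cluster, where the CPI barcodes come mostly from cluster 13 and the isotype ones from cluster 0, 3 genes had the opposite sign. There 12.6% of 2356 genes tested were called, and *Ptgs2* was lower with CPI, 562 and 436 against 839 and 819 CPM (-0.74, SE 0.24, adjusted p = 0.0493). *Arg1* had 450.5 and 411 CPM with CPI and 389 and 754 CPM with isotype (-0.42, SE 0.28, adjusted p = 0.352), and *Nos2* 40.7 and 24.7 against 53.0 and 65.5 CPM from 6 to 15 UMIs a sum (-0.85, SE 0.56, adjusted p = 0.361). *Acod1* was lower there as well (277 and 381 against 636 and 811 CPM; -1.14, SE 0.29, adjusted p = 0.0138). Between barcodes of cluster 0 alone, where 2.1% of 1711 genes were called, no member was called. *Arg1* had 880 and 715 CPM with CPI and 414 and 793 CPM with isotype (0.36, SE 0.32, adjusted p = 0.613). *Nos2* was at 1.14 (SE 0.68, adjusted p = 0.42, from 3 to 12 UMIs a sum), *Acod1* at -0.91 (SE 0.34, adjusted p = 0.152) and *Ptgs2* at -0.12 (SE 0.28, adjusted p = 0.872), so *Arg1* and *Nos2* had the sign they had over all barcodes. CPI had only 19 and 16 barcodes in the C1q-high macrophage-like sub-clusters, spread over these in other proportions than with isotype. Areg/Tnfsf9 held 8 and 9 of them, Hspb1/Adm 4 and 2 and Cxcl9/Fgd2, low in *Arg1* and *Nos2*, 6 and 4, whereas with isotype 1580 and 1489 barcodes lay in Cxcl9/Fgd2, the most of any sub-cluster. The 159 and 143 CPI barcodes of cluster 13, counted as Lyz1/Saa3, are left out of this class. Their C1q-high markers summed to 20503 and 23366 CPM, close to the 20573 and 25254.5 CPM of the 19 and 16. Within this class *Arg1* (575 and 699 against 229 and 241 CPM; 1.04, SE 0.25, adjusted p = 0.0431) and *Nos2* (183 and 196 against 19.5 and 16.7 CPM; 2.99, SE 0.46, adjusted p = 0.00392) were higher and *Acod1* lower (-1.43, SE 0.30, adjusted p = 0.0196), where 1.87% of 7903 genes were called, and *Ptgs2* was not called (0.07, SE 0.30, adjusted p = 0.957). The median over all genes was -0.45 there, so the gains of *Arg1* and *Nos2* are larger and the loss of *Acod1* smaller relative to it. Each *Nos2* sum of CPI rests on 7 UMIs there, and 1 of these sums also held 2640 CPM of the 6 mast cell and basophil markers against at most 28.0 CPM elsewhere.

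The third comparison asked what ABT-317 changed after CPI. In all macrophage/monocyte-like barcodes *Nos2*, *Acod1* and *Arg1* were higher with CPI + ABT-317 than with CPI, where 15.2% of genes were called. *Arg1* reached 822 and 787 CPM (0.84, SE 0.15, adjusted p = 0.0022), *Nos2* 141 and 119 CPM (1.45, SE 0.22, adjusted p = 0.000715) and *Acod1* 733 and 683 CPM (1.12, SE 0.18, adjusted p = 0.00106). The sums of the 2 groups did not overlap for these 3 genes, nor for *Ptgs2* and *Hmox1*, and the share of all genes without overlap was not counted. *Ptgs2* had 380.5 and 348 CPM (-0.41, SE 0.14, adjusted p = 0.0689, and 0.00325 with the reaction as a block) and *Hmox1* 499 and 552 CPM (0.23, SE 0.19, adjusted p = 0.485). The number of genes called, 1238, was 643 without CPI reaction 1, 559 without CPI reaction 2 and 631 without CPI + ABT-317 reaction 2.

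Within the Lyz1/Saa3 sub-cluster, where 11.9% of 2356 genes were called, *Nos2*, *Arg1*, *Acod1* and *Ptgs2* were all higher with CPI + ABT-317, but the barcodes of the groups come from different clusters (0 and, for CPI, mostly 13). *Nos2* stood at 682 and 344 CPM (60 and 49 UMIs) against 40.7 and 24.7 CPM with CPI, a 15.1-fold difference (log2 3.91, SE 0.36, adjusted p = 1.15e-06). *Arg1* stood at 1931 and 2022 CPM, 4.70-fold more than with CPI (2.23, SE 0.26, adjusted p = 1.72e-05). *Acod1* (738 and 1285 CPM; 1.68, SE 0.28, adjusted p = 0.00056) and *Ptgs2* (909 and 1208 CPM; 1.13, SE 0.23, adjusted p = 0.00318) followed. Between the barcodes of cluster 0 alone, 25 and 40 with CPI + ABT-317 and 31 and 27 with CPI, the differences were smaller, and 0.584% of 1711 genes were called. The mix still differed there, with monocyte markers at 1812 and 1857 CPM with CPI + ABT-317 against 880 and 698 CPM with CPI. *Nos2* stood there at 706 and 374 CPM against 188 and 51.1 CPM with CPI, the latter from 12 and 3 UMIs, a 4.38-fold difference (2.13, SE 0.48, adjusted p = 0.0374). *Arg1* stood at 2001 and 2086 CPM against 880 and 715 CPM (2.63-fold; 1.40, SE 0.30, adjusted p = 0.0288). *Acod1* (1.36, SE 0.33, adjusted p = 0.061) and *Ptgs2* (0.43, SE 0.28, adjusted p = 0.635) were not called. In C1q-high macrophage-like barcodes, where 0.633% of genes were called, *Acod1* alone of the members was called (1.71, SE 0.30, adjusted p = 0.0206), against a median of 0.44 over all genes. *Arg1* (0.51, SE 0.23, adjusted p = 0.398) and *Nos2* (-0.63, SE 0.39, adjusted p = 0.499) were not. The CPI barcodes of cluster 13 are left out of this class.

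The comparison of CPI + ABT-317 with isotype + ABT-317 leaves out the CPI barcodes. Both groups were mostly macrophage-like, but their mix differed as well. From isotype + ABT-317 to CPI + ABT-317 the share of Cxcl9/Fgd2 barcodes went from 46.0% and 40.1% to 27.2% and 28.7%, that of Areg/Tnfsf9 from 15.3% and 18.8% to 26.4% and 22.7%, that of Pde4c/Gm17749 from 1.61% and 0.966% to 6.90% and 6.08%, and that of Lyz1/Saa3 from 0.806% and 0.483% to 9.96% and 12.7%. The part of this mix in the comparison was not tested, and values within sub-clusters are given further on. *Nos2*, *Arg1* and *Ptgs2* rose in it, and only 2.24% of all genes were called. *Nos2* was 6.31-fold higher (2.66, SE 0.22, adjusted p = 2.48e-05), *Arg1* 3.03-fold (1.60, SE 0.15, adjusted p = 4.77e-05) and *Ptgs2* 1.81-fold (0.86, SE 0.14, adjusted p = 0.00459). Without isotype + ABT-317 reaction 2 *Ptgs2* was no longer called (0.77, adjusted p = 0.102). *Hmox1* (0.53, SE 0.19, adjusted p = 0.204) and *Acod1* (0.52, SE 0.17, adjusted p = 0.148) did not pass, and passed with the reaction as a block (adjusted p = 0.000151 and 5.39e-05), a fit that called 620 genes in place of 182. That number was 70 without isotype + ABT-317 reaction 1, 60 without its reaction 2, 114 without CPI + ABT-317 reaction 1 and 87 without its reaction 2. In C1q-high macrophage-like barcodes alone, where 1.62% of genes were called, *Nos2* (88.3 and 97.2 against 20.5 and 21.6 CPM; 2.18, SE 0.24, adjusted p = 0.000107) and *Arg1* (714 and 666 against 239 and 305 CPM; 1.37, SE 0.15, adjusted p = 0.00014) rose as well and *Ptgs2* did not pass (0.56, SE 0.15, adjusted p = 0.0922).

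**Figure D3:**
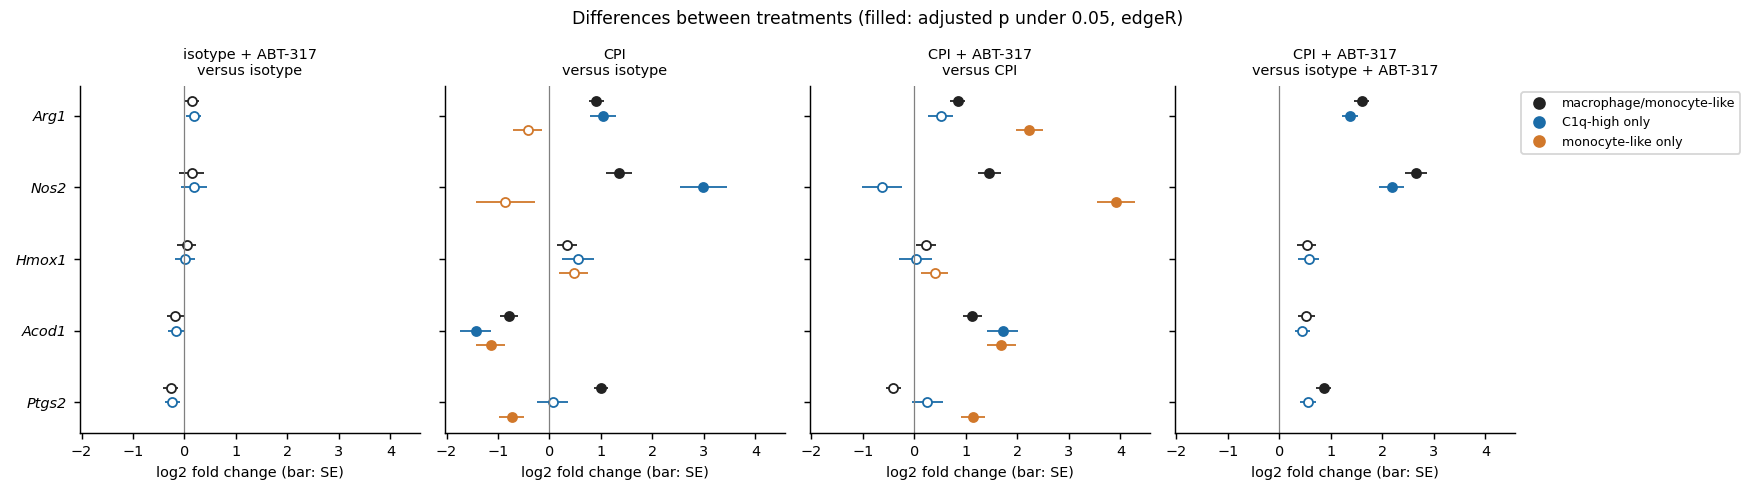
Difference between treatments (log2 fold change, bars are SE) for 5 enzyme genes in all macrophage/monocyte-like, C1q-high macrophage-like and Lyz1/Saa3 (monocyte-like) barcodes, filled where edgeR's adjusted p is under 0.05. All points of the first panel are open, the lowest that of *Ptgs2* at -0.27, and the last panel, without CPI barcodes, has *Nos2* at 2.66 and *Arg1* at 1.60.

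The higher *Arg1* and *Nos2* of CPI + ABT-317 was seen in the Hspb1/Adm and Cxcl9/Fgd2 sub-clusters, and that of *Arg1* in Areg/Tnfsf9 as well. Sums are given without a test, and not for every sub-cluster. In Hspb1/Adm barcodes *Arg1* stood at 1916 and 1833 CPM with CPI + ABT-317, 640 and 754 CPM with isotype + ABT-317 and 652 and 670.4 CPM with isotype. In Areg/Tnfsf9 barcodes it stood at 885 and 704 CPM against 286 and 517 CPM and 337 and 340.4 CPM. In Cxcl9/Fgd2 barcodes, low in *Arg1*, it stood at 291 and 322 CPM against 57.3 and 83.0 CPM and 113 and 105 CPM. In each of these 3 sub-clusters both CPI + ABT-317 sums lay above all others given here. The share of all genes for which this holds was not counted. *Nos2* in Cxcl9/Fgd2 barcodes had 79.0 and 64.0 CPM with CPI + ABT-317, 5.40 and 5.3 CPM with isotype and no UMI with isotype + ABT-317, which allows up to 9.04 and 9.96 CPM. In Hspb1/Adm barcodes it had 248 and 181 CPM against 86.3 and 68.3 CPM with isotype and 105 and 101 CPM with isotype + ABT-317. In the Pde4c/Gm17749 sub-cluster, with 18 and 22 barcodes, *Nos2* did not follow, with no UMI (which allows up to 39.8 CPM) and 20.5 CPM against 42.0 and 14.6 CPM with isotype. *Hmox1* of Hspb1/Adm barcodes overlapped between groups, with 2149 and 2123 CPM against 1466 and 2239 CPM with isotype.

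**Figure D4:**
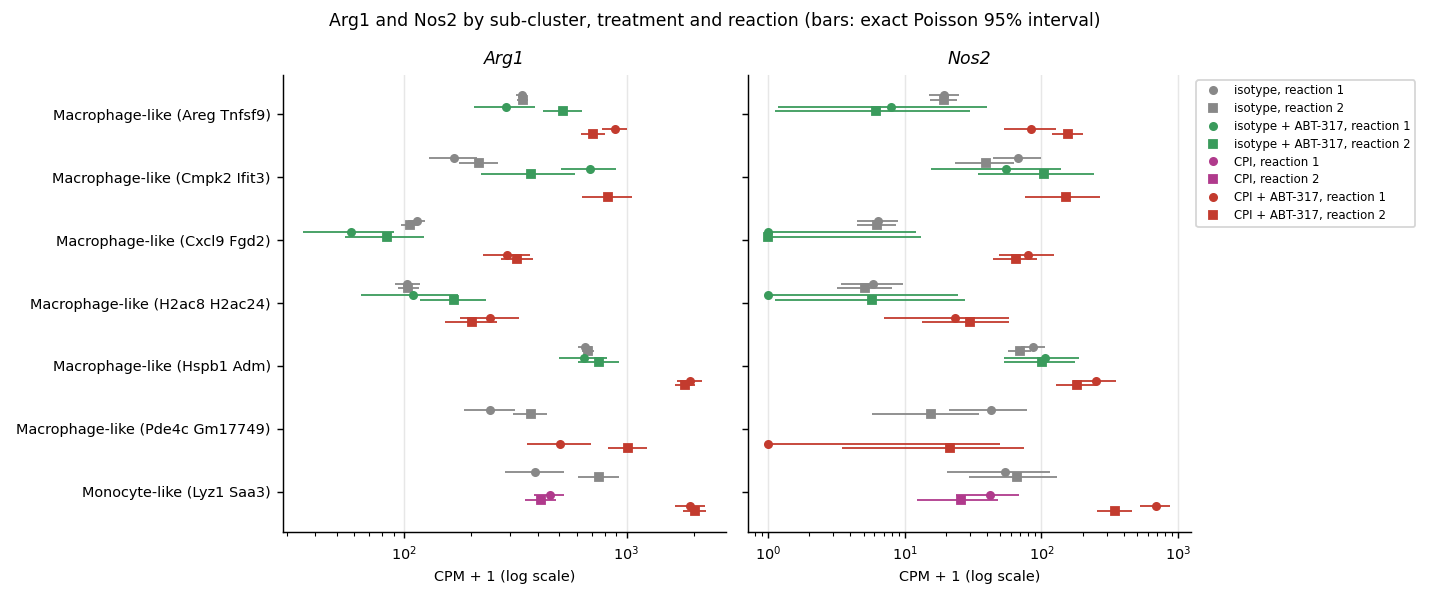
*Arg1* and *Nos2* (CPM + 1, log scale) in each macrophage-like and Lyz1/Saa3 sub-cluster by treatment and reaction, with exact Poisson 95% intervals, for sums of 10 or more barcodes. Red points (CPI + ABT-317) lie to the right of gray (isotype) and green (isotype + ABT-317) ones for *Arg1* in every sub-cluster with both reactions drawn, Hspb1/Adm reaching 1916 and 1833 CPM.

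Whether the effect of CPI differed with ABT-317 was tested as an interaction, which called 7.06% of genes. It was positive for *Nos2* (1.31, SE 0.32, adjusted p = 0.0283) and *Acod1* (1.30, SE 0.24, adjusted p = 0.00653). *Arg1* missed the threshold (0.69, SE 0.21, adjusted p = 0.0645) and passed it in 6 of 18 alternatives. These were the reaction as a block (adjusted p = 0.00026), every gene tested (0.86, adjusted p = 0.00504), all myeloid-like clusters (0.94, adjusted p = 0.0214), leaving out isotype + ABT-317 reaction 2 (0.92, adjusted p = 0.0436), barcodes under 2500 genes (0.79, adjusted p = 0.0483) and DESeq2 (0.70, adjusted p = 0.0489). *Hmox1* (0.19, SE 0.27) and *Ptgs2* (-0.14, SE 0.20) were not called. The *Nos2* call was kept in 8 of 18 alternatives. It was lost on leaving out any of 6 of the 8 sums (all but isotype reaction 2 and CPI + ABT-317 reaction 2), at adjusted p of 0.0515 to 0.115. It was also lost with barcodes with at least 1000 genes (1.04, adjusted p = 0.147), barcodes without UMIs of other lineages' markers (1.16, adjusted p = 0.107) and the finer clustering (1.10, adjusted p = 0.0528). In C1q-high macrophage-like barcodes, where 0.114% of genes were called, and their median was 0.47, *Acod1* was called (1.88, SE 0.34, adjusted p = 0.0376) and *Nos2* had the opposite sign (-0.81, SE 0.46, adjusted p = 0.492). These barcodes leave out the CPI ones of cluster 13. The number of genes called, 574, was 267 without CPI reaction 1, 233 without CPI reaction 2, 225 and 348 without isotype + ABT-317 reaction 1 and 2, 287 without CPI + ABT-317 reaction 2, and 1234 with the reaction as a block.

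Genes around the members were read from lists by pathway, with levels in CPM after edgeR's TMM scaling. The lists were also chosen with earlier results of these data known, so counts from them are a description. Of 10 arginine genes, 3 rose between isotype + ABT-317 and CPI + ABT-317 and none fell (2.24% of all genes were called, 152 up and 30 down), with a list median of 0.30 against -0.01 over all genes tested. They were *Slc7a2*, an importer of arginine (69.4 and 58.2 against 183 and 152 CPM; 1.38, SE 0.19), *Ass1*, which rebuilds arginine from citrulline (50.6 and 84.4 against 146 and 195 CPM; 1.35, SE 0.26), and *Odc1*, which takes ornithine on to polyamines (188 and 193 against 321 and 278 CPM; 0.65, SE 0.14). Between isotype and CPI 4 rose and 1 fell, where 23.7% of all genes were called (median 0.33 against -0.01). *Arg2*, the mitochondrial arginase, rose from 8.91 and 8.90 CPM to 80.2 and 97.6 CPM (3.31, SE 0.25) and stood at 18.2 and 25.1 CPM with CPI + ABT-317 (-1.995, SE 0.27, against CPI), so that *Arg2* and *Arg1* moved in opposite directions between these 2 groups.

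Of 19 genes of the interferon gamma response, 10 rose and none fell both between CPI and CPI + ABT-317 (15.2% of all genes called; median 0.97 against 0.00) and between isotype + ABT-317 and CPI + ABT-317 (2.24% called; median 0.87 against -0.01), comparisons that share a group. *Cxcl9*, a chemokine that draws T cells, stood at 255 and 243 CPM with isotype, 171 and 205 CPM with isotype + ABT-317, 151 and 208 CPM with CPI and 704 and 674 CPM with CPI + ABT-317 (1.94, SE 0.17, against CPI). *Socs1*, a feedback inhibitor of JAK signaling, stood at 8.23 and 14.8 CPM with isotype + ABT-317 and 63.8 and 91.5 CPM with CPI + ABT-317 (2.77, SE 0.38). Between isotype and CPI 4 of the 19 rose, among them *Socs1* and *Irf1*, and 3 fell, among them *Cxcl10*, where 23.7% of all genes were called, 1054 up and 876 down. No gene of this list was called between isotype and isotype + ABT-317 (median 0.00).

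Of the 14 genes beside *Hmox1* in heme and iron handling 11 were tested. Between isotype and CPI 3 rose and 2 fell, where 23.7% of all genes were called, and between CPI and CPI + ABT-317 none rose and 3 fell, where 15.2% were. *Bach1*, a heme-sensing repressor of *Hmox1*, rose with CPI (88.9 and 86.0 to 158 and 129 CPM; 0.72, SE 0.18) and was lower with CPI + ABT-317 (86.0 and 61.2 CPM; -0.998, SE 0.21). *Txnrd1*, a reductase of the oxidative stress response, rose with CPI (130.5 and 120.3 to 421 and 361 CPM; 1.64, SE 0.15) and was lower with CPI + ABT-317 than with CPI (-0.75, SE 0.15). It was the only one to rise between isotype + ABT-317 and CPI + ABT-317 (0.78, SE 0.16; list median 0.17), 1 of 11 against 2.24% of all genes called.

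Of 10 prostaglandin genes tested, 1 (*Tbxas1*) rose and 3 fell between isotype and CPI, against 23.7% of all genes, 3 rose and none fell between CPI and CPI + ABT-317, against 15.2%, and none was called between isotype + ABT-317 and CPI + ABT-317. *Ptgs1*, the constitutive cyclooxygenase, stood at 26.5 and 30.2 CPM with isotype, 12.2 and 2.64 CPM with CPI (-1.90, SE 0.49) and 24.3 and 31.6 CPM with CPI + ABT-317 (1.91, SE 0.52). *Hpgds*, which makes prostaglandin D, fell with CPI (110 and 118 to 29.2 and 36.9 CPM; -1.79, SE 0.23) and was higher with CPI + ABT-317 (1.65, SE 0.25). *Ptgs2* rose with CPI, and its difference of -0.41 between CPI and CPI + ABT-317 was not called. That difference was 1.13 within the Lyz1/Saa3 barcodes and 0.25 within the C1q-high ones, the latter below the median over all genes there. Of 9 citrate cycle genes tested, 2 rose between isotype and CPI and 2 fell between CPI and CPI + ABT-317, shares near those of all genes. *Idh1* rose with CPI (2.12, SE 0.31) and was lower with CPI + ABT-317 (-2.06, SE 0.36), the reverse of *Acod1*. Of 4 tryptophan genes tested 2 rose and 1 fell between isotype and CPI, 1 fell between CPI and CPI + ABT-317 and none was called between isotype + ABT-317 and CPI + ABT-317. Of all genes tested 23.7%, 15.2% and 2.24% were called in these 3 comparisons. For 13 NF-kB targets these counts were 6 up and 2 down, 1 up and 4 down, and 3 up and none down. For 15 genes of hypoxia and alternative activation they were 8 up and 3 down, 4 up and 3 down, and 2 up and none down. *Retnla*, a gene of alternative activation, was at 122 and 295 CPM with CPI and at 0.645 CPM or less in every other sum. The class mix described above moves with each of these CPI comparisons, and its part was not tested.

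Marker sums over all macrophage/monocyte-like barcodes give the mix by group. The 10 C1q-high markers summed to 25190 and 30592 CPM with isotype, 23529 and 27016 CPM with isotype + ABT-317, 19363 and 21454 CPM with CPI and 18775 and 24719 CPM with CPI + ABT-317. The 10 monocyte markers summed to 257 and 262, 236 and 230.5, 597 and 549, and 339 and 363 CPM in that order. The 9 C1q-low macrophage markers in the matrix, among them *Spp1*, *Mmp12* and *Thbs1*, summed to 2137 and 2291, 2997 and 2923, 4024 and 4436, and 3537 and 3173 CPM. This last list was lowest with isotype and highest with CPI, and its part in the comparisons was not tested. The 6 mast cell and basophil markers summed to 248 and 20.0 CPM with CPI and at most 4.03 CPM elsewhere. The 9 T cell markers were at most 9.98 CPM in any sum. Median UMIs per barcode were 1643 and 1862 with CPI and 3050 to 4155 in the other groups.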

How the data were processed

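Tumors were profiled by 10x 5' single-cell RNA-Seq with antibody tags (132 antibody features). The authors deposited filtered matrices of UMI counts, raw and not normalized, made with Cell Ranger (8.0.1 in the tumor file header, 7.1.0 in the lymph node header, 3.1.0 in the submitters' notes). A text file deposited beside the matrices gives the group of each hashtag. The genome build of these matrices was taken from none of the sources as certain, and gene coordinates from the files are not given.

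Hashtags were called with a mixture of 2 normal components per hashtag at a posterior of 0.5, and barcodes with several hashtags were left out as doublets. Before other filters the CPI hashtag was in 9780 and 5092 barcodes, of which 2032 and 1567 carried it alone. For CPI + ABT-317 these numbers were 9116 and 8476, and 2353 and 3202. For isotype + ABT-317 they were 14183 and 5709, and 3297 and 2646, and for isotype 26608 and 16731, and 11444 and 9704. The part of this loss in the class shares was not tested. No other doublet caller was run. Barcodes with at least 200 genes and under 10% mitochondrial UMIs were kept; the study's upper limit of 2500 genes was an alternative, since it keeps 45.1% and 41.5% of these. Clustering used scanpy 1.11.5 (2000 variable genes, 30 components, 15 neighbors, Leiden resolution 0.5; myeloid clusters again with 20 components). A cluster was named from the marker list with the highest mean log2 ratio, if that was at least 1 with at least 3 markers at 2-fold. It stayed unnamed where 60% of its barcodes carried several hashtags. This naming rule was chosen after seeing the data, so names may differ from the study's.

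Levels are CPM of summed counts with exact Poisson 95% intervals. Shares have exact Clopper-Pearson intervals, after thinning barcodes to 2000 UMIs and leaving out shallower ones (91.4% of T-like, 51.5% of Lyz1/Saa3, 4.2% of H2ac8/H2ac24 barcodes). Both cover counting error only. Treatments were compared with edgeR 4.0.16 (TMM, filterByExpr, glmQLFit and glmQLFTest, R 4.3.3) on the 8 sums in 1 fit without a block, Benjamini-Hochberg adjusted at 0.05 over all genes tested, with SE taken as the log2 difference over the root of F. The script was tested on simulated data. A level of 0 was given a limit of 3 counts.

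Reaction number pairs the sums, since it marks the 10x reaction that they share: deviations of same-numbered sums correlated at 0.106 to 0.417 over 6 pairs of treatments and 8134 genes. The fit with reaction as a block, DESeq2 1.42.0, other filters, cell sets and clustering, and each sum left out were alternatives. The 6 genes were all named. From 8 pathway lists, genes past 0.05 could be named, at most 4 per list and comparison by size of the log2 difference. Only some of these are given, chosen with their values known, and the rest as counts. The 6 genes and all lists were chosen with earlier results of these data known.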

Additional observations from a re-analysis of the deposited data

Results flagged for a closer look

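In both cases a test of the difference between 2 effects passed its threshold: in macrophage/monocyte-like barcodes the effect of CPI with ABT-317 minus that without it was 1.30 (log2) for *Acod1* and 1.31 for *Nos2*. The CPI group in that difference lies mostly in the Lyz1/Saa3 sub-cluster and the other 3 groups in other sub-clusters, and the part of this was not tested. In C1q-high macrophage-like barcodes *Acod1* was called again (1.88) and *Nos2* was not (-0.81), with 19 and 16 CPI barcodes and without those of cluster 13.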

How the results depend on the processing

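Of 470 alternative values of single genes, 417 kept their direction and their side of the threshold, 13 passed it newly, 20 no longer passed it and 20 changed sign. The cause was not tested in any case. Restricting the fit to the Lyz1/Saa3 sub-cluster, an alternative chosen after seeing the data, turned CPI against isotype to -0.42 for *Arg1*, -0.85 for *Nos2* and -0.74 for *Ptgs2*, and *Ptgs2* of CPI + ABT-317 against CPI to 1.13. Its barcodes of cluster 0 alone, also chosen after seeing the data, gave *Ptgs2* -0.124 and 0.427 in these comparisons. Restricting it to C1q-high macrophage-like barcodes turned *Nos2* to -0.63 and *Ptgs2* to 0.25 for CPI + ABT-317 against CPI, and to -0.81 and 0.49 in the interaction. The median over all genes was positive in each, and *Ptgs2* lay below it at 0.25 and close to it at 0.49. The other sign changes were of values that were never called. For isotype + ABT-317 against isotype *Nos2* was -0.0439 with a ratio rule for hashtags and *Hmox1* -0.0254 with every gene tested, and leaving out 1 sum gave -0.0708 to 0.334 for *Arg1*, -0.21 to 0.345 for *Hmox1* and -0.347 to 0.00497 for *Acod1*. In the interaction *Ptgs2* was 0.0112 with all myeloid-like clusters and 0.036 with every gene tested, and leaving out 1 sum gave -0.245 to 0.00555 for *Ptgs2* and -0.10 to 0.454 for *Hmox1*.

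Numbers of genes called, for CPI against isotype, CPI + ABT-317 against CPI, isotype + ABT-317 against isotype, CPI + ABT-317 against isotype + ABT-317 and the interaction, were 1930, 1238, 3, 182 and 574. In C1q-high barcodes the first, second and last were 148, 50 and 9, and in the Lyz1/Saa3 sub-cluster the first and second were 298 and 281, and 36 and 10 among its cluster 0 barcodes. With the reaction as a replicate block, the pairing raised the last 3 to 127, 620 and 1234. Testing every gene gave 42 for isotype + ABT-317 against isotype and 298 for CPI + ABT-317 against isotype + ABT-317. The former was also 1 with barcodes under 2500 genes, 5 with at least 1000 genes, 6 at the finer clustering and 16 with DESeq2. Leaving out 1 sum in turn gave 991 to 1888, 559 to 1230, 0 to 3, 60 to 215 and 225 to 566. The block changed no member's call other than those named with it above. A sum left alone in its group is assumed to vary like the others. CPI sums of 406762 and 400851 UMIs and 16 to 22 *Nos2* UMIs limit what can be seen in that group.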

Other observations

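Neutrophil-like barcodes lay outside the treatment comparisons. Their *Acod1* stood at 1573 and 1667 CPM with isotype (45 and 19 barcodes), at 3149 CPM with CPI in reaction 1 (22 barcodes) and at 2369 and 6425 CPM with CPI + ABT-317 (10 and 12 barcodes). *Ptgs2* stood in the same sums at 719 and 644, 705, and 1737 and 1112 CPM. *Arg1* in these barcodes had 86.7 and 400 CPM with isotype, no UMI with CPI in reaction 1 (which allows up to 141 CPM), and 1948 CPM and no UMI (up to 371 CPM) with CPI + ABT-317, so its level there rests on single sums. An unnamed myeloid sub-cluster led by *Pde7b* and *Cadm1*, in 694 barcodes, was close to the Areg/Tnfsf9 sub-cluster in *Acod1* and *Ptgs2* (1039 and 509 CPM) but low in *Arg1* (75.2 CPM).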
